A study of Mus musculus with 16 samples.

Results

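The 10 genes described here encode transcription factors that set and maintain the identity of hepatocytes: Hnf4a, Foxa1, Foxa2, Foxa3, Onecut1, Prox1, Nr1i2, Nr1i3, Nr5a2 and Rxra. They were chosen by name, as the probes whose gene name in the scanner files was one of these symbols. That gave 16 probes of 41174, and all 10 genes were among the 16382 genes with a probe bright enough to test. The study measured mouse liver RNA on 2-colour arrays, in which RNA of one genotype is labelled with Cy5 and of another with Cy3 on the same array. Each of 8 experiments was run on a pair of arrays with the dyes swapped and counted as 1 replicate, so each comparison had n = 2. Nrf2-/- livers (Nrf2 KO) met wild-type RNA in experiments 1 and 4, and Atg7F/F:Mx1-Cre livers (Atg7 cKO) met it in experiments 2 and 5. Livers of Atg7F/F:Mx1-Cre:Nrf2-/- mice (double KO) were paired with wild type in experiments 3 and 6, and with Atg7 cKO in experiments 7 and 8. Per the series' design text, Atg7 cKO, double KO and control mice received pIpC at 8 weeks of age and RNA was taken 4 weeks later, while the growth protocol given for every array speaks of treatment for 4 weeks. Mx1-Cre is switched on by the interferon that pIpC induces, and is active in hepatocytes and also in other interferon-responsive cells such as blood cells and macrophages, so the deletion need not be confined to hepatocytes. The labels describe the partner mice as wild type and give neither the floxed or Cre alleles they may have carried nor the number of animals behind each RNA, so p-values measure the spread between experiments, which may in part be technical.

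These factors bind one another's genes and shared enhancers, and together keep the genes for albumin, clotting factors, bile acid synthesis and drug metabolism active. The forkhead proteins Foxa1, Foxa2 and Foxa3 open chromatin for other factors, and Onecut1 (HNF-6) and Prox1 are homeodomain proteins needed for the development of the liver and bile ducts. Hnf4a is a nuclear receptor that controls a large part of the genes expressed in hepatocytes. Nr1i2 (PXR) and Nr1i3 (CAR) are receptors for foreign compounds, Nr5a2 (LRH-1) regulates bile acid synthesis, and Rxra is the partner with which Nr1i2, Nr1i3 and many other receptors bind DNA. Atg7 is needed to form autophagosomes, and Nrf2, the product of Nfe2l2, activates antioxidant genes. The comparisons ask how the loss of either or both altered the liver.

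Arrays were alike in quality: 43.4% to 57.2% of spots were well above background, and the median signal was 41.8 to 55.6 against a median background of 34.5 to 36.5. Values below are log2 ratios, knockout over its partner, and a gene is called where limma's Benjamini-Hochberg adjusted p over all tested genes is under 0.05. In the comparisons with wild type, the probes of the deleted genes followed the labels. Nfe2l2 gave -3.88 with Nrf2 lost, 1.2 in livers lacking Atg7 alone and -3.71 where both were lost. Atg7 gave -0.81 in Atg7 cKO livers and -0.73 in double KO livers, and -0.05 where only Nrf2 was lost. Experiments 1 to 3 and 4 to 6 form 2 sets that cut across the genotypes, since both channels expressed the Y-linked Ddx3y and Eif2s3y in experiments 1 to 3 and the X-linked Xist in 4 to 6. Each comparison with wild type has 1 experiment from each set, so the 2 values given for a gene are also its values within each set. The main fit has no term for set, so the SD and p-value of a gene also hold any difference between the sets. The 2 experiments of a comparison also lay on different slides.

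None of the 10 factors changed past the threshold when Nrf2 alone was lost (0 higher and 0 lower by limma, and also 0 under each of 17 alternative settings). Of all genes, 0% were called higher and 0.0122% lower. At an unadjusted p under 0.05 there was 1 member of 10, Nr1i3, and 606 of 16382 genes. Nr1i3, the receptor CAR, had a log2 signal of 7.77 and 8.66 in Nrf2 KO livers, against 8.53 and 9.18 in the wild-type channels of the same arrays. Each experiment gave a lower value in Nrf2 KO, though the 2 groups overlapped, and the log2 ratio was -0.64 ± 0.17 (SD, n = 2; limma adjusted p = 0.9998). Hnf4a lay at -0.23 ± 0.09 and Nr1i2 at -0.15 ± 0.09, also lower in both experiments. Foxa2 went opposite ways, with 0.55 in experiment 1 and -0.46 in experiment 4. Its probe is spotted 10 times on each array, and the SD over the spots of an array was 0.0211 to 0.0524 on the log2 scale, which covers the spotting of 1 RNA and not the spread between RNAs. Foxa3 (0.24), Onecut1 (0.16), Nr5a2 (0.14), Foxa1 (0.03), Prox1 (-0.01) and Rxra (-0.09) were not called either.

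Loss of Atg7 lowered 6 of the 10 factors and raised 0, where 16.3% of all tested genes were called lower and 23.4% higher. The members that fell were the nuclear receptors Nr1i3, Rxra, Nr5a2 and Hnf4a and the homeodomain factors Onecut1 and Prox1. The median over the 10 members was -0.53, beside 0.00 over all genes. The Foxa genes and Nr1i2 were not called. In whole liver RNA, fewer hepatocytes and less RNA per hepatocyte cannot be told apart.

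Among the nuclear receptors, Nr1i3 had a log2 signal of 7.76 and 7.41 in Atg7 cKO livers, against 8.53 and 9.15 in their wild-type partners. The knockout was lower in both, by more in experiment 5, and the ratio was -1.25 ± 0.68 (limma adjusted p = 0.0106), or 2.38-fold lower. Rxra, the shared partner receptor, had a log2 signal of 11.01 and 11.38 in Atg7 cKO livers, against 11.83 and 11.91 in wild type. It fell by 0.68 on the log2 scale (SD 0.21, limma adjusted p = 0.00647). Its second probe gave -0.18 and was not called (adjusted p = 0.0548 in a limma fit of all probes). The bile acid regulator Nr5a2 had 8.65 and 8.90 in Atg7 cKO livers, against 9.18 and 9.49 in wild type, a ratio of -0.55 ± 0.04 (limma adjusted p = 0.00396). Hnf4a had 9.03 and 8.87 in Atg7 cKO livers, against 9.32 and 9.51 in wild type, a ratio of -0.47 ± 0.24 (limma adjusted p = 0.0156). Its groups did not overlap, and the other 2 Hnf4a probes were also called, at -0.38 and -0.34. Nr1i2, the receptor PXR, was at -0.04 ± 0.20, with 0.10 in experiment 2 and -0.18 in experiment 5.

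Of the homeodomain and forkhead factors, Onecut1 changed most in Atg7 cKO. Its log2 signal was 8.13 and 8.12 in Atg7 cKO livers, against 9.25 and 9.46 in wild type. The groups lay over 1 log2 unit apart in both experiments, and the ratio was -1.23 ± 0.15 (limma adjusted p = 0.00139), or 2.34-fold lower. A second Onecut1 probe, designed on another transcript and well above background in 22 of 24 channels, gave -0.55 (adjusted p = 0.00370 among all probes). Prox1 fell by 0.51 on the log2 scale (SD 0.32, limma adjusted p = 0.0275), with -0.29 in experiment 2 and -0.73 in experiment 5. Its other 2 probes were not called, at -0.17 and -0.13. Foxa2 lay at -0.60 ± 0.26 (limma adjusted p = 0.114), and was called with slide as a block (-0.82, adjusted p = 0.00832) and with experiment as a random block (adjusted p = 0.00914). Here and below, the slide fit leaves few residual degrees of freedom, and the random-block fit enters dye-swapped arrays of the same RNAs singly. Neither is independent of the main fit. Foxa3 lay at -0.09 and Foxa1 at -0.03. Without experiment 5 the calls of Hnf4a (-0.29) and Prox1 (-0.29) were lost and 4 members were called lower. Without experiment 1 or 4 the call of Prox1 was lost and Foxa2 was called, leaving 6.

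**Figure D1:**
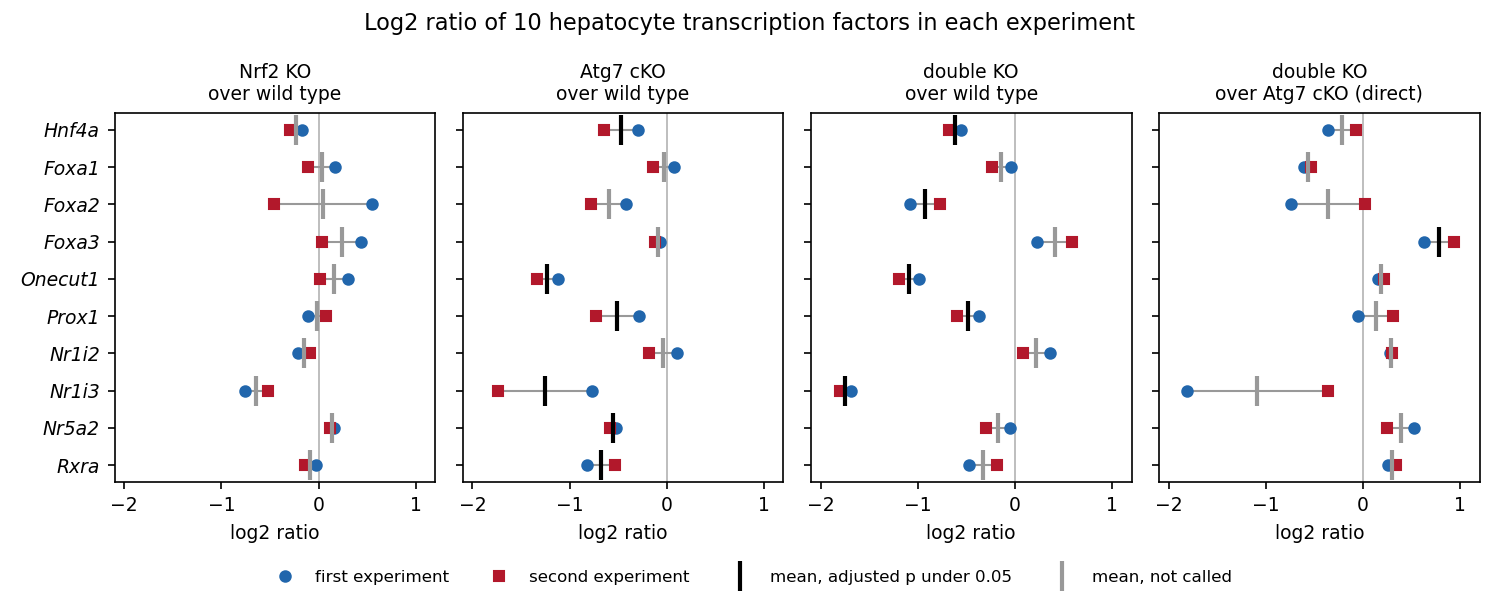
Log2 ratio (x axis) of each of the 10 factors in the 4 comparisons, from limma on loess-normalised arrays (the direct panel from the value table). Circles and squares are the first and second experiment of a comparison, bars their mean, black where the adjusted p is under 0.05: Onecut1 and Nr1i3 lie farthest left in Atg7 cKO and the double KO, and Foxa3 is the member called higher in the direct comparison.

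Coding probes of 3 of the factors that fell are shown: the Nr1i3 and Onecut1 probes gave the values above, and the Hnf4a probe is one of the other 2, itself called at -0.38. Coordinates are those of the scanner files (mm9), and each has a reading frame with no stop codon through its 60 bases. The Hnf4a probe shown codes for part of the zinc fingers that bind DNA, and the Onecut1 probe codes for part of the homeodomain. Nr1i3 was measured at chr1:173147776-173147835 (plus strand), Onecut1 at chr9:74737272-74737331 (plus strand) and Hnf4a at chr2:163378302-163378361 (plus strand).
Nr1i3: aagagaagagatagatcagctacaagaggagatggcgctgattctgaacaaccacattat
Onecut1: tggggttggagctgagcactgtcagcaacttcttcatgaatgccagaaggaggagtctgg
Hnf4a: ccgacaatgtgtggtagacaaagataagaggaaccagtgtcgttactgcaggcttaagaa

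With both Atg7 and Nrf2 lost, 5 of the 10 factors fell and 0 rose against wild type, where 16% of all tested genes were called lower and 21.4% higher. Nr1i3, Onecut1, Hnf4a and Prox1 were lower than wild type here as in Atg7 cKO, and Foxa2 was called here, though the calls of Foxa2 and Prox1 were each lost in 7 of 17 alternative settings. The median over the members was -0.41, beside 0.01 over all genes. These comparisons share wild type as their partner, so their values are given side by side and not as independent results.

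Nr1i3 had a log2 signal of 6.66 and 7.41 in double KO livers, against 8.34 and 9.21 in wild type. No value of the double KO reached the wild-type range, and the ratio was -1.75 ± 0.08 (limma adjusted p = 0.00404), or 3.35-fold lower, beside -1.25 in Atg7 cKO and -0.64 in Nrf2 KO. Onecut1 had 8.25 and 8.27 in double KO livers, against 9.24 and 9.46 in wild type, a ratio of -1.09 ± 0.15 (limma adjusted p = 0.00169). That lay beside -1.23 in Atg7 cKO and 0.16 in Nrf2 KO. Hnf4a had 8.58 and 8.84 in double KO livers, against 9.14 and 9.52 in wild type, a ratio of -0.62 ± 0.08 (limma adjusted p = 0.00674). Its other 2 probes gave -0.34 and -0.33 and were called. Foxa2, the pioneer factor, had 9.02 and 9.66 in double KO livers, against 10.09 and 10.43 in wild type. The ratio was -0.92 ± 0.22 (limma adjusted p = 0.0375), beside -0.60 in Atg7 cKO. It was lost under both centrings described below, without the filter on dim probes (adjusted p = 0.0619) and without experiment 2, 3, 5 or 6 (-0.77 without 3 and -1.08 without 6). Prox1 lay at -0.48 ± 0.16 (limma adjusted p = 0.0334), and its other 2 probes, at -0.11 and -0.14, were not called. Its call was lost under both centrings, without the filter on dim probes and without experiment 1, 3, 4 or 6 (-0.60 without 3 and -0.37 without 6).

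The other 5 members missed the threshold in the double KO. Nr5a2 had 9.08 and 9.18 in double KO livers, against 9.13 and 9.48 in wild type, and gave -0.18 ± 0.18 (limma adjusted p = 0.107) beside -0.55 in Atg7 cKO. Rxra gave -0.33 ± 0.21 (limma adjusted p = 0.0576) beside -0.68. It was called lower with set as a block (limma adjusted p = 0.0367), slide as a block (0.0229), experiment as a random block (0.0223) and without experiment 2 or 5 (0.0476). Its second probe was called, at -0.20 (adjusted p = 0.0405 in the limma fit of all probes). Foxa3 had 7.63 and 7.68 in double KO livers, against 7.41 and 7.09 in wild type, so both experiments were above wild type, at 0.41 ± 0.26 (limma adjusted p = 0.0554). Nr1i2 gave 0.22 and Foxa1 -0.14. The Foxa1 probe was well above background in 21 of 24 channels, and the value table, made without the offset used here, gave -1.02 and -0.78 for it in experiments 3 and 6, a mean of -0.90 that was not called. The number of members called lower was 3 without experiment 3 and 2 without experiment 6.

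**Figure D2:**
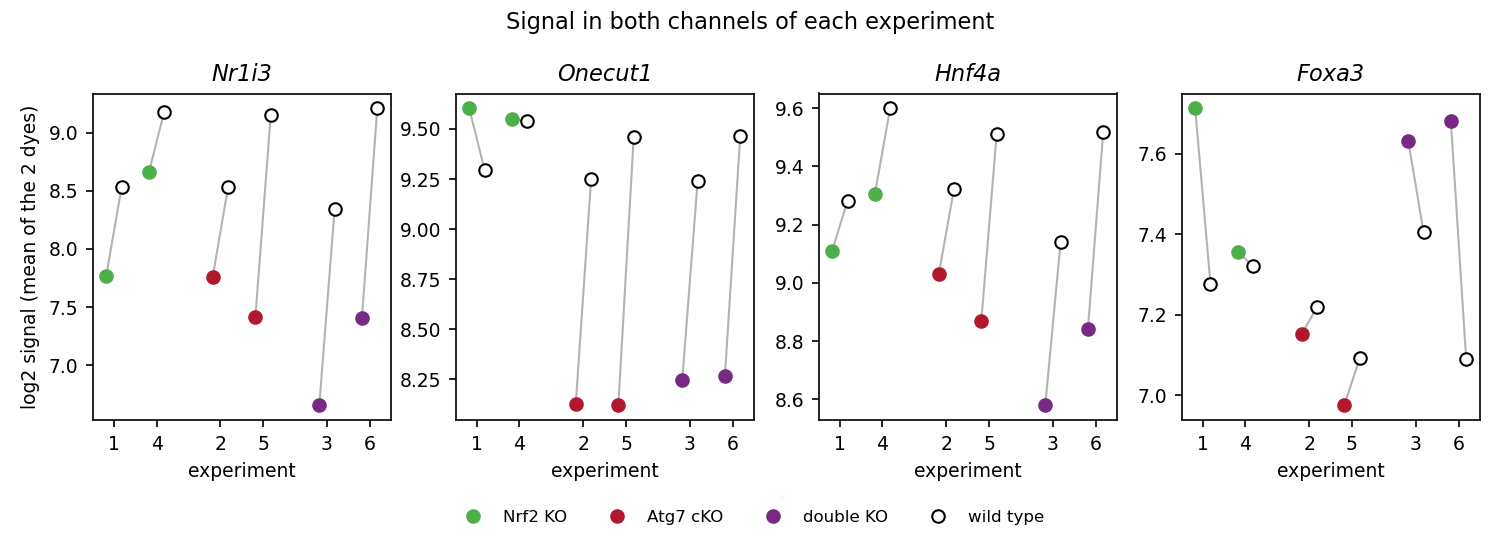
Log2 signal (y axis, mean of both dyes, separate scale per gene) of Nr1i3, Onecut1, Hnf4a and Foxa3 in each of experiments 1 to 6. Filled points are the knockout and open points the wild-type RNA of the same arrays: the Nr1i3 signal of the knockout is below that of its wild-type partner in all 6 experiments, and the wild-type level itself is 9.15 to 9.21 in experiments 4 to 6, against 8.34 to 8.53 in the other 3.

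The level of several factors in wild-type liver differed between the 2 sets of experiments, as a description of 3 experiments each. In experiments 4 to 6 wild-type Nr1i3 was at 9.15 to 9.21, against 8.34 to 8.53 in 1 to 3, a difference of 0.71 in the means. Over the same sets Foxa2 had 10.43 to 10.51, against 9.99 to 10.09, and Hnf4a had 9.51 to 9.60, against 9.14 to 9.32. Onecut1, Nr1i2, Nr5a2 and Foxa1 were also higher in experiments 4 to 6 with no overlap, by 0.23 to 0.32 in the means. For Rxra, Foxa3 and Prox1 the sets overlapped. How many of all tested genes differed between the sets without overlap was not counted, so these differences are not shown to be particular to the members. In Atg7 cKO livers Nr1i3 was at 7.41 in experiment 5 and 7.76 in experiment 2, so the larger fall of experiment 5 came with a higher wild-type level.

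With the double KO and Atg7 cKO on the same arrays, 1 of the 10 factors was called higher and 0 lower, where 6.73% of all tested genes were called higher and 8.08% lower. The 1 of 10 is near that share. Foxa3 was 0.63 in experiment 7 and 0.94 in experiment 8, a mean of 0.78 ± 0.22 (limma adjusted p = 0.0385, 1.72-fold). It kept that call in 2 of 7 alternative settings and lost it when either experiment was left out (0.94 without experiment 7 and 0.63 without experiment 8). Through wild type the same difference was 0.50 (limma adjusted p = 0.191). Nr5a2 lay at 0.39 ± 0.20 (adjusted p = 0.0758, 95% interval 0.10 to 0.67) and Rxra at 0.30 ± 0.06 (adjusted p = 0.154, interval -0.01 to 0.60). Nr5a2 was called lower in Atg7 cKO and not in the double KO, and Rxra was called in Atg7 cKO and, in the double KO, under 5 of 17 alternative settings. Nr1i3 differed between the experiments, with -1.82 in experiment 7 and -0.36 in experiment 8 (adjusted p = 0.126). Hnf4a (-0.21, interval -0.53 to 0.10), Onecut1 (0.18, interval -0.10 to 0.46) and Prox1 (0.13, interval -0.31 to 0.57) were not called. Foxa1, here also from the value table, lay at -0.57, Foxa2 at -0.36 and Nr1i2 at 0.29, also not called. The second Onecut1 probe gave 1.30 (adjusted p = 0.0785) against 0.18 for the brightest probe, so the 2 probes disagreed in size. For Rxra the 2 probes disagreed in direction. Its second probe gave -0.24 (adjusted p = 0.177 in the limma fit of all probes), with -0.20 in experiment 7 and -0.28 in experiment 8.

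Whether losing Nrf2 acted differently with Atg7 absent was tested as the double KO minus Atg7 cKO minus Nrf2 KO, the departure from additivity on the log2 scale. None of the 10 members was called (0 by limma, 0 at an unadjusted p under 0.05), where 0.128% of all genes were called higher and 0.592% lower. The estimates for Rxra (0.43, interval -0.02 to 0.89) and Nr1i2 (0.41, interval -0.03 to 0.85) were the highest of the members. Nr1i3 (0.15, interval -0.84 to 1.13) and Foxa2 (-0.37, interval -1.47 to 0.72) had the widest intervals.

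How many members counted as lower depended on how the arrays were centred, so the calls above are relative to loess. Centring each array on the median of all its probes moved the median of all tested genes by 0.21 in Atg7 cKO and 0.14 in the double KO. Under it 2 members stayed lower in each of the 2 genotypes, Nr1i3 and Onecut1. Nr1i3 was at -0.81 in Atg7 cKO and -1.45 in the double KO, and Onecut1 at -0.77 and -0.78. Hnf4a was at -0.01 in Atg7 cKO and -0.31 in the double KO, and was not called. Nr1i2 was called higher in Atg7 cKO (0.41, limma adjusted p = 0.0352), against a main value of -0.04, and Foxa3 (0.70) and Nr1i2 (0.52) were called higher in the double KO. Centring on the median of the tested genes instead, an alternative chosen after the data were seen, left Nr1i3, Onecut1 and Rxra called lower in Atg7 cKO and Nr1i3, Onecut1 and Hnf4a in the double KO. Nr1i3 and Onecut1 kept their direction and call in all 17 alternative settings in both genotypes.

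**Figure D3:**
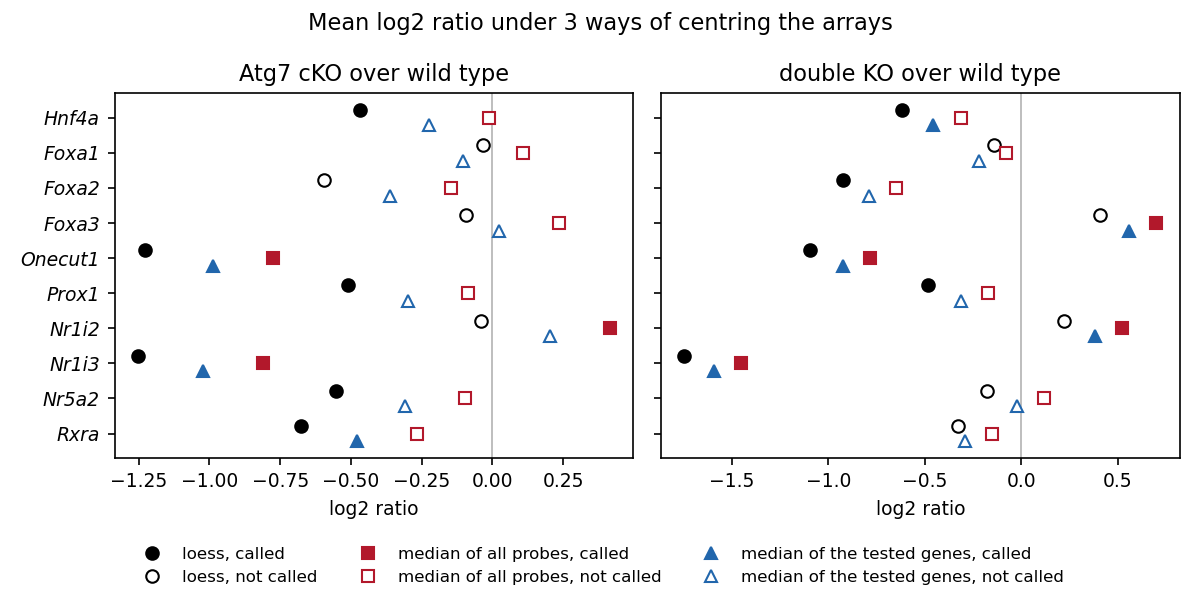
Mean log2 ratio (x axis) of each member in Atg7 cKO and the double KO under loess, centring on the median of all probes and centring on the median of the tested genes. Filled symbols are called by limma: only Onecut1 and Nr1i3 are filled under all 3 in both genotypes, and Nr1i2 turns from -0.04 under loess to 0.41 in Atg7 cKO.

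Motif letters were looked for in the 250 bases before the annotated start of each of the 16 promoters of the 10 genes in the RefSeq promoter table (GRCm38.p6), read on both strands. The core of the antioxidant response element to which Nrf2 binds, TGACNNNGC, was in 0 of them, against 10.16% of all 32851 promoters. The nuclear receptor core AGGTCA was in 2 (Nr5a2 and Rxra) against 14.02%. The Onecut1 site ATTGAT was in 2 (Hnf4a and Foxa2) against 6.72%, and the Foxa site TGTTTAC in 1 (Foxa1) against 3.17%. The Nr5a2 site CAAGGTCA, which contains AGGTCA, and the Hnf4a site CAAAGTCCA were in 0, against 1.33% and 0.38%. A match describes letters and not a bound site. Hnf4a and Onecut1 both fell in Atg7 cKO and the double KO, and whether Onecut1 acts on Hnf4a was not tested. The downstream of the 2 Hnf4a promoters, at chr2:163546905-163547154, held no match to ATTGAT. The upstream one, at chr2:163506607-163506856 (GRCm38.p6, plus strand), is shown with its match to ATTGAT on the minus strand in capitals.
Hnf4a: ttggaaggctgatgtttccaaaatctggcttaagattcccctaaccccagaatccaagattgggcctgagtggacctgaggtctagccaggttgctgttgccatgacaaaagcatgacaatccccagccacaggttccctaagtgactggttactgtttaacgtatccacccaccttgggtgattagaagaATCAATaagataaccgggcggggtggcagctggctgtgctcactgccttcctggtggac

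Other transcription factors of the liver moved in the same comparisons. Over all tested genes, 16.3% were called lower and 23.4% higher in Atg7 cKO, and 16% and 21.4% in the double KO. Of 16 listed factors, 8 were called lower and 0 higher in Atg7 cKO (median -0.42) and 6 lower and 2 higher in the double KO (median -0.27). In Atg7 cKO these included Atf5, a stress-response factor (-1.64 ± 0.06, limma adjusted p = 2.79e-04), Klf15, which controls amino acid breakdown (-1.16 ± 0.37), Tbx3 (-1.11 ± 0.12) and Cebpa, which drives metabolic genes (-0.90 ± 0.07). The double KO had Cebpa at -1.21 ± 0.30 and Tbx3 at -1.17 ± 0.29, while Cebpb, which is induced in inflammation, was at 1.68 ± 0.26 (limma adjusted p = 0.00120). Against Atg7 cKO directly, Cebpb (1.36 ± 0.20) and Atf5 (1.04 ± 0.13) were called higher, and neither call held from experiments 7 and 8 alone or without experiment 7 (1.22 and 0.95). The Klf15 call was lost without experiment 5 (-0.90), and each Tbx3 call when either experiment of its comparison was left out (-1.02 and -1.19 in Atg7 cKO, -1.38 and -0.96 in the double KO). Centring on the median of all probes left 3 lower in Atg7 cKO and 4 in the double KO.

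Of 26 measured nuclear receptors outside the members, 8 were called lower and 1 higher in Atg7 cKO (median -0.16). In the double KO 6 were lower and 0 higher (median -0.08). The shares over all tested genes were 16.3% lower and 23.4% higher in Atg7 cKO and 16% and 21.4% in the double KO. Under centring on the median of all probes 1 of these receptors was lower and 5 higher in Atg7 cKO. For the double KO it gave 0 lower and 4 higher, and both medians of the receptors were above 0 (0.09 in each). Pparg, a regulator of fat storage, was at 1.14 ± 0.12 in Atg7 cKO (limma adjusted p = 9.02e-04) and at -1.24 ± 0.35 in the double KO against Atg7 cKO directly, the direct call being lost without experiment 7 (-0.99) and from experiments 7 and 8 alone. The bile acid receptor Nr1h4 (FXR) lay at -0.88 ± 0.01 in Atg7 cKO and -0.67 ± 0.36 in the double KO, and the fatty acid receptor Ppara at -0.67 ± 0.05 and -0.60 ± 0.35, all 4 called. Both Atg7 cKO calls were lost without experiment 2 (-0.89 for Nr1h4 and -0.70 for Ppara) or 5 (-0.88 and -0.63). In the double KO the Nr1h4 call was lost in 7 of 17 settings, among them slide as a block and leaving out experiment 2, 3 (-0.41), 5 or 6 (-0.93), and the Ppara call in 3, among them slide as a block and without experiment 3 (-0.36). Neither Nr0b2 (SHP), a repressor of Nr5a2 and Hnf4a, nor Nr1h3 (LXR alpha) was called in any comparison with loess. Of 16 coregulators, which receptors recruit to activate or silence genes, 1 was called higher and 3 lower in Atg7 cKO and 4 higher and 0 lower in the double KO, where 16.3% of all genes were lower in Atg7 cKO and 21.4% higher in the double KO. The 3 and the 4 of 16 are near those shares. Ncoa3, a coactivator, was at 0.71 ± 0.24 in Atg7 cKO and 1.12 ± 0.01 in the double KO (limma adjusted p = 0.00113). Centring on the median of all probes gave 7 higher and 0 lower in Atg7 cKO and 9 higher in the double KO.

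Genes known to be controlled by the members were listed by regulator, and the lists share genes. Over all tested genes, 16.3% were called lower and 23.4% higher in Atg7 cKO, and 16% and 21.4% in the double KO. Of 26 measured genes that Hnf4a activates, 21 fell and 1 rose in Atg7 cKO (median -0.93). In the double KO 22 fell and 0 rose (median -0.77). The bile acid importer Slc10a1 was at -2.19 ± 0.26 in Atg7 cKO and -2.31 ± 0.26 in the double KO. Cyp7a1, the rate-limiting enzyme of bile acid synthesis, was at -2.07 ± 0.23 and -2.18 ± 1.12, and Cyp8b1, which sets the type of bile acid made, at -1.96 ± 0.17 and -1.95 ± 0.50 in the same order. The Cyp7a1 call was lost in Atg7 cKO with slide as a block and without experiment 2 (-2.24) or 5 (-1.91), and in the double KO without experiment 3 (-1.38). Under centring on the median of all probes 10 of the list were called lower in Atg7 cKO and 12 in the double KO. Of 12 measured Nr5a2 targets, 5 fell in Atg7 cKO and 4 in the double KO, with 0 higher in either. These include Gls2, which breaks down glutamine (-1.73 ± 0.11 and -1.59 ± 0.48), and the same Cyp7a1 and Cyp8b1. Of 7 measured Foxa targets, 5 fell and 1 rose in Atg7 cKO (median -1.16) and 4 fell and 1 rose in the double KO (median -0.50). Of the 5, Apob, Tat and Ttr are also in the Hnf4a list, and Alb, Cps1 and Ttr are also hepatocyte markers. The lists are therefore not separate results. The fetal gene Afp was the one that rose in Atg7 cKO (3.72 ± 1.77), and Igfbp1, an insulin-responsive secreted protein, in the double KO (2.58 ± 0.66, lost without experiment 3, at 2.11).

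Targets of Nr1i3 and Nr1i2 went both ways. Of 25 measured, 10 rose and 8 fell in Atg7 cKO, where 23.4% of all tested genes were called higher and 16.3% lower. In the double KO 3 rose and 12 fell (median -1.07), beside 21.4% and 16% of all tested genes. The Atg7 cKO median was -0.41, but it was 0.56 in experiment 2 and -0.51 in experiment 5, and it was 0.01 under centring on the median of all probes. Cyp2c54 was at -3.29 ± 1.1 in Atg7 cKO and -3.12 ± 0.14 in the double KO, and Cyp2c37 at -3.07 ± 0.89 and -3.04 ± 0.14, both close paralogs whose probes may cross-hybridise. Akr1b7, an aldose reductase, was at 3.03 ± 0.14 in Atg7 cKO and 2.37 ± 1.05 in the double KO. The drug-metabolising P450 genes most used as readouts of these receptors, Cyp2b10 (-0.79 ± 1.75 and -1.15 ± 1.45) and Cyp3a11 (-1.0 ± 0.50 and -0.56 ± 0.46, in the same order), gave a call only for Cyp3a11 in Atg7 cKO (limma adjusted p = 0.0252). That call was lost in 5 of 17 settings: both centrings, processed signals, the value table and without experiment 5 (-0.65). The Cyp2b10 values differed between the sets, with 0.45 in experiment 2 and -2.02 in experiment 5 of Atg7 cKO. For the double KO they were -0.12 in experiment 3 and -2.17 in experiment 6. In the direct comparison 8 of the list were lower (1 from experiments 7 and 8 alone) and 0 higher, where 8.08% of all tested genes were lower. The 8 include the transporter Abcc3 (-2.56 ± 0.13) and Aldh1a1 (-2.01 ± 0.20). Abcc2 and Abcc3 are also known targets of Nrf2, whose own gene Nfe2l2 was at -6.49 in this comparison. Abcc2 (0.78) and Abcc3 (0.95) were among the 10 that rose in Atg7 cKO. Which regulator the genes of this list followed was not tested. In Nrf2 KO none of the 7 lists held a called gene.

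**Figure D4:**
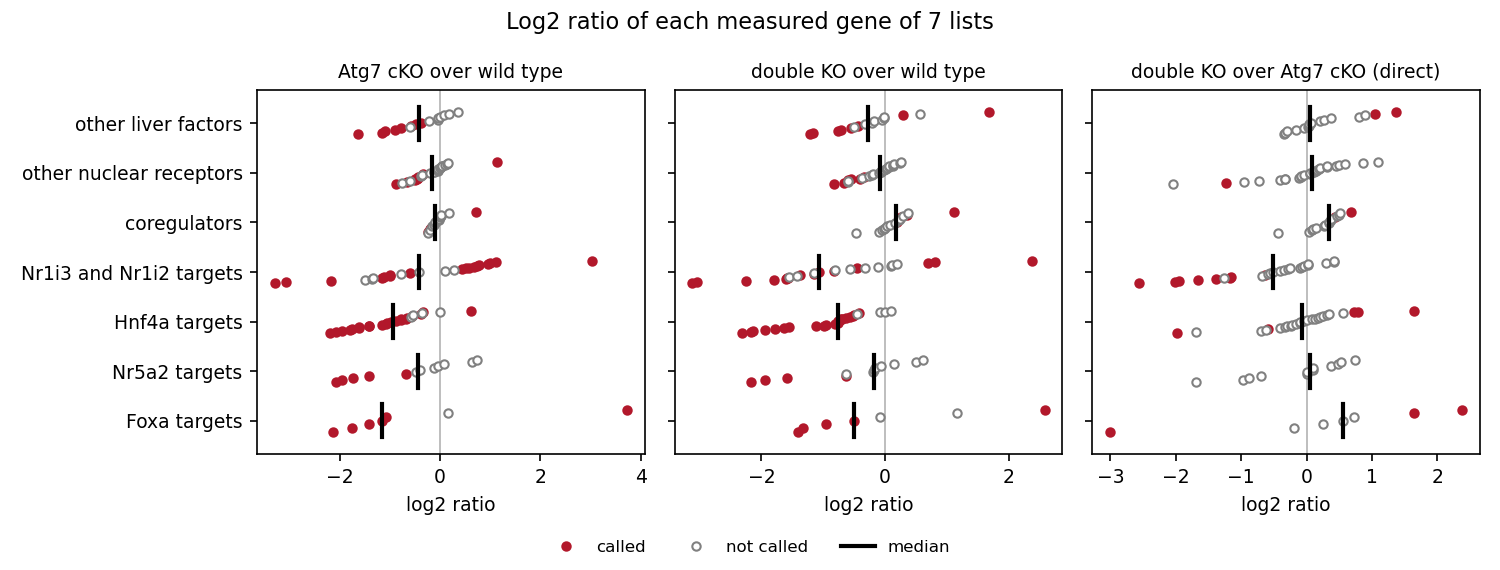
Log2 ratio (x axis) of each measured gene of 7 lists in Atg7 cKO, the double KO and the double KO over Atg7 cKO, with red points called by limma and black bars the list median. The Hnf4a targets lie mostly below 0 in both genotypes against wild type (medians -0.93 and -0.77), while the Nr1i3 and Nr1i2 targets spread to both sides in Atg7 cKO.

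Markers of liver cell types moved in the same comparisons. Of 8 measured hepatocyte markers 7 fell and 0 rose in Atg7 cKO (list medians -1.53 and -1.71 in the 2 experiments) and 7 fell and 0 rose in the double KO (-1.55 and -1.11). Of 10 macrophage markers 9 rose in Atg7 cKO (1.33 and 1.90) and 10 in the double KO (1.58 and 1.51), with Marco at 3.34 and 4.43. Of all genes tested, 23.4% were called higher in Atg7 cKO livers and 21.4% in double KO livers, and 16.3% and 16% lower. Stellate cell markers rose in 5 of 9 cases in each genotype, cholangiocyte markers in 3 of 7 in each, and neutrophil markers in 2 of 5 and 3 of 5. Lymphocyte markers rose in 4 of 9 cases in the double KO and in 2 of 9 in Atg7 cKO, near the share of all genes. Endothelial markers had 2 higher and 0 lower of 9 in Atg7 cKO and 1 higher and 4 lower in the double KO. The part of cell composition in the falls of the factors was not tested. Whole liver RNA does not show which cells gave the signal of any of the 10 members. Prox1, for example, is also expressed in lymphatic vessels and Onecut1 in bile ducts, so that their signal need not come from hepatocytes alone.

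As a description over the 8 experiments of the value table, the genes nearest to each called member by Euclidean distance of log2 ratios were as follows. For Hnf4a they were Gpt, a transaminase of hepatocytes, Atg4d and Cipc (distances 0.27 to 0.30). For Onecut1 they were Apc2, Ntsr1 (with a ratio of exactly 0 in experiments 7 and 8) and Aldh9a1 (0.41 to 0.52). For Nr1i3 they were Ces1b, Ugt2a1 and Col13a1 (1.08 to 1.19), where the distance also grows with the size of the ratios. For Nr5a2 they were Pid1, Bclaf1 and Dcps (0.19 to 0.26), and for Rxra Itch, Tirap and Msl3 (0.26 to 0.29). Foxa3 lay nearest to Tcf4, Ogfrl1 and Irf9 (0.55 to 0.65), Prox1 to Camkk2, Dnajc30 and Atp2a2 (0.25 to 0.33), and Foxa2 to Slc25a16, Klhl7 and Scrn3 (0.54 to 0.58). These distances are over experiments that share genotypes and are no test.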

How the data were processed

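Mouse liver RNA (500 ng per labelling, per the labels' protocols) was measured on 16 Agilent 2-colour arrays. Scanner files of experiments 1 to 6 (12 arrays) held spot intensity, mean signal and median background, per the file headers. These name Feature Extraction 9.5.1.1 and mm9 coordinates, and the submitters' processing notes give 9.5.1. The deposited value table held log10 ratios of Cy5 over Cy3 for all 16 arrays. It differed from the log10 ratios in the scanner files by under 0.005, was converted to log2, and was used for experiments 7 and 8, for which no scanner file was used here.

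Signals were corrected with normexp (offset 50) and normalised by loess in limma 3.58.1 (R 4.3.3, with the data.table package, version 1.17.8), with control and outlier-flagged spots left out. All ratios run knockout over partner, and dye swaps were averaged. Probes well above background in 4 or more of the 24 channels were kept, the brightest standing for its gene. Gene names came by accession for 24844 probes, by symbol for 6045, by synonym for 1810 and from the files for 8475. A fit of 3 group means over experiments 1 to 6 (3 residual degrees of freedom, prior 2.21) gave the comparisons with wild type and the interaction. The value table's 8 experiments, fitted with 4 group means (4 residual, prior 2.13), gave the direct comparison. Spread is pooled over groups. Calls use Benjamini-Hochberg adjusted p under 0.05. The scripts were tested on simulated data.

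The named genes were the 10 members, up to 4 called genes with the largest ratios per list and comparison, Cebpa, Nr0b2, Nr1h4, Ppara, Nr1h3, Cyp2b10 and Cyp3a11 always, and the 3 genes nearest each called member. One gene that this rule names is not reported here. Members and lists were chosen with earlier results of these data known. Alternatives changed the background correction, normalisation, probe filter, slide (experiments 1 and 2, 3 and 4, 5 and 6 shared slides) or set block, and left out each experiment. The number of arrays limits the precision.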

Additional observations from a re-analysis of the deposited data

How the results depend on the processing

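The Nr1i3 and Onecut1 falls kept direction and call under all 17 alternatives in Atg7 cKO and the double KO. Centring on the median of all probes gave 2 members lower and 1 higher in Atg7 cKO and 2 lower and 2 higher in the double KO, and centring on the median of the tested genes, added after the data were seen, gave 3 lower in Atg7 cKO and 3 lower and 2 higher in the double KO. With slide as a block, each array kept separate and experiment as a random block, or an offset of 10, 1 member was higher in the double KO, and without the filter on dim probes 3 were lower. Leaving out experiments gave 4 to 6 members lower in Atg7 cKO and 2 to 5 in the double KO. In the direct comparison, the members called higher were 3 (with 1 lower) in a fit of all 8 experiments with genotype effects and 0 in experiments 7 and 8 alone, through wild type, without the dim-probe filter and without either experiment. In Atg7 cKO, centring on the median of all probes changed the sign of Nr1i2 (0.41), Dnajc7 (0.26), Med1 (0.23) and Sirt1 (0.11). Centring on the tested genes put Dnajc7 (0.0462) and Med1 (0.0139) near 0, and their lower calls were lost.

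Genes called over the whole array without an experiment numbered 3176 to 5872 in Atg7 cKO, 2820 to 6165 in the double KO, 0 to 2 in Nrf2 KO, 301 to 1195 in the direct comparison and 2 to 62 in the interaction. For Nrf2 KO they were 91 with the random block, 11 with set and 4 with slide as a block, 0 with median centring of all probes and 1 without the dim-probe filter. In the direct comparison they were 5600 with genotype effects, 106 with experiments 7 and 8 alone and 812 through wild type. In the interaction they were 1186 with the random block, 323 with set and 0 with slide as a block, 65 with median centring, and 6 with processed signals or the value table. The cause of these moves was not tested. With set as a block 6 members were called lower in each of Atg7 cKO and the double KO, and with slide as a block 7 and 6. The offset of 50 pulls ratios of probes near background, such as Foxa1, towards 0, and 2 experiments per comparison limit every value.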
